A study of Rattus norvegicus with 12 samples.

Results

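The comparison set 3 libraries from control cells against 9 libraries from cells depleted of 1 of 3 splicing regulators, with the RBPMS, RBFOX2 and QKI knockdown groups weighted equally. All 12 libraries of the series entered it. Of 33294 genes in the count table, 18438 had enough counts to be tested. Its question was which genes stood higher or lower in knockdown cells whichever regulator had been targeted.

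RNA was sequenced from PAC1 cells, a rat line of pulmonary artery smooth muscle that the study kept under conditions favouring the differentiated state. The study reports that its control cells were less differentiated in the experiment with these knockdowns than in its other sequencing experiment. Each group held 3 libraries, which the study describes as biological replicates of the line. Per the labels, cells of every group received 90 pmol of siRNA, were transfected again after 24 h and were collected 48 h after that. The intervals given in the study are longer. Control cells received C2, a negative control siRNA, and the other groups received an siRNA against RBPMS, RBFOX2 or QKI (gene symbol Qk). There was 1 control siRNA only, so a gene altered by C2 itself and a gene altered alike by all 3 knockdowns cannot be told apart. In bulk RNA, fewer cells of a type and less RNA per cell cannot be told apart either.

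Vascular smooth muscle cells can pass from a contractile state, rich in actin, myosin light chain and calponin, to a synthetic state that divides, migrates and lays down matrix. RBPMS, RBFOX2 and QKI are RNA-binding proteins that set alternative splicing in these cells, and the abundance of a transcript can move with or without its splicing. Pathways often read out by induced transcripts in such cells include the aryl hydrocarbon receptor, which senses planar aromatic compounds, NRF2, which senses electrophiles and oxidants, and the interleukin 1 receptor family.

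The sense strands of the 4 siRNAs are shown because the shared response rests on 3 reagents set against 1. Capitals mark the bases opposite positions 2 to 8 of an antisense strand that begins across from the last base shown.
C2: aagguccggcuccCCCAAAUg
RBPMS: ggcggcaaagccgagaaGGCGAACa
RBFOX2: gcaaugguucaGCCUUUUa
QK: ggacuuacagcUAAACAAc
The strands ran to 21, 25, 19 and 19 bases in that order, with 61.9%, 64.0%, 42.1% and 42.1% G and C. None of the 6 pairs of siRNAs shared the 7 capital letters. Of 724 mature rat miRNAs in RefSeq, 0 carried the seed that pairs with any of the 4.

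Library totals lay between 111 and 152 M counts. Levels are given as CPM, counts per 1 M of a library total adjusted for RNA composition (TMM), which are not corrected for gene length and are compared between libraries only. Each siRNA lowered its own target. Rbpms stood at 39.4, 38.9 and 43.7 CPM in control and at 6.96, 7.11 and 7.54 in RBPMS knockdown. It was also lower in RBFOX2 knockdown, at 21.4 to 25.2 CPM, and in QKI knockdown, at 28.4 to 30.1. Rbfox2 fell in its own knockdown by 2.05 on the log2 scale and Qk by 3.13. Since each target is lowered directly in 1 of the groups, the means of Rbpms (log2 fold change -1.27), Rbfox2 (-0.77) and Qk (-1.13) are not read as shared.

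Against control, 1649 genes differed in the mean of the 3 knockdowns by more than 1 on the log2 scale, in either direction, with adjusted p below 0.05. Such genes are called higher or lower from here on. They made up 8.94% of the genes tested, with 937 called higher (5.08%) and 712 called lower (3.86%). Adjusted p alone took in 11433 genes (62.0%), so the fold threshold did most of the selecting. The share at an unadjusted p under 0.05 was not counted over all genes and cannot be lower than that. Counts at an unadjusted p are given below for single lists and are not read as a trait of those lists. Many of the calls concerned scarce transcripts: 479 of the 937 rises and 263 of the 712 falls averaged under 50 counts. All 9 knockdown libraries lay above all 3 control libraries for 2479 genes (13.4%) and below them for 2608 (14.1%). Both criteria were met by 552 rises (2.99%) and 501 falls (2.72%).

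The mean can be the same for a gene that moved alike in the 3 knockdowns and for a gene that moved far in 1 of them. The difference among the 3 knockdown groups, which uses no control library, was therefore tested as well, and 4249 genes (23.0%) were called different among them, with an adjusted p under 0.05 and more than 1 between the highest and lowest group on the log2 scale. Over all calls the 937 rises had a median of 0.997 between the highest and lowest knockdown and the 712 falls one of 1.27, and 43.5% and 55.5% of them were called different among the knockdowns. The gap between rises and falls was wider among calls without overlap that averaged 5 CPM or more. Among genes that averaged 5 CPM or more, were called and did not overlap, the 196 rises had a median of 0.447 between the highest and lowest knockdown, with quartiles of 0.283 and 0.821. The 208 falls had a median of 1.18, with quartiles of 0.714 and 1.7. All 10707 genes at that level had a median of 0.449. Of the rises 29 (14.8%) were called different among the knockdowns, and of the falls 121 (58.2%), beside 12.8% of all genes at that level. At this level and without overlap, the share of rises that differed among the knockdowns was close to that of all genes. Over all rises called it was not, with 43.5% beside 23.0% of all genes tested. These are descriptions of lists chosen by the comparison, without a test between them.

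**Figure D1:**
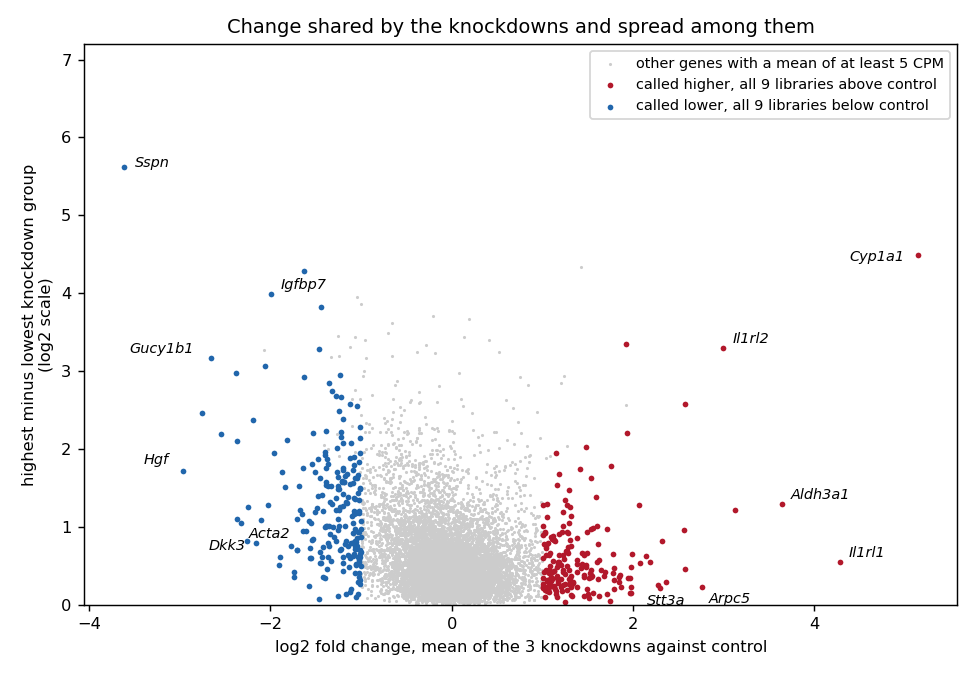
Each point is a gene that averaged 5 CPM or more, placed by its log2 fold change in the mean of the 3 knockdowns against control (x) and by the distance between its highest and lowest knockdown group on the log2 scale (y). Rises that did not overlap with control lay mostly low (median 0.447), while falls reached higher (median 1.18). Sspn, a fall, stood at 5.63 and Cyp1a1, a rise, at 4.49.

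The rises with the largest smallest change among the knockdowns were in genes of unlike function. Il1rl1, the receptor of interleukin 33, measured 12.3, 12.4 and 12.6 CPM in control and 197 to 207 in RBPMS, 223 to 242 in RBFOX2 and 261 to 343 in QKI knockdown. Its log2 fold change was 4.28 ± 0.074 (SE, edgeR adjusted p = 3.38e-17), with 4.04, 4.22 and 4.59 in the RBPMS, RBFOX2 and QKI knockdowns. The lowest knockdown library stood far above the highest control library.

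Arpc5 encodes a subunit of the Arp2/3 complex, which nucleates branched actin. Control libraries held 59.4, 59.3 and 59.8 CPM, and the 9 knockdown libraries 365 to 448. The log2 fold change was 2.76 ± 0.035 (adjusted p = 2.09e-18), and the 3 knockdowns gave 2.74, 2.89 and 2.66. Stt3a, a catalytic subunit of the oligosaccharyltransferase that glycosylates proteins entering the endoplasmic reticulum, went from 75.9, 76.8 and 82 CPM to between 338 and 408 (log2 fold change 2.28 ± 0.031). Ssr2, a subunit of the translocon-associated protein complex at the same membrane, went from 49.3, 48 and 48.3 CPM to between 220 and 291 (2.36 ± 0.045). In neither gene did the groups overlap.

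Fbxo6, which recognises glycoproteins for degradation, measured 8.15 to 8.93 CPM in control and 37.7 to 48 in the knockdowns. Arl1, a small GTPase of the Golgi, measured 27.9 to 28.8 and 104 to 119. Their log2 fold changes of 2.30 and 1.98 varied by only 0.21 and 0.15 among the knockdowns. Olfml3, a secreted olfactomedin-like protein, rose by 2.57 on the log2 scale and Clip3, a microtubule-associated linker, by 2.56. Gzmb, the protease granzyme B best known from cytotoxic lymphocytes, rose from 0.759, 1.16 and 1.06 CPM to between 5.59 and 17.6.

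Falls common to all 9 libraries were less equal in size. Hgf, the growth factor that acts through the receptor Met, measured 27, 27.3 and 28.9 CPM in control. It stood at 4.06 to 5.21 in RBPMS, 4.86 to 6.24 in RBFOX2 and 1.63 to 1.86 in QKI knockdown, and its log2 fold change was -2.96 ± 0.066 (adjusted p = 4.39e-16). Dkk3, a secreted protein of the Dickkopf family, fell from 202, 206 and 196 CPM to between 32.5 and 61 (-2.16 ± 0.034). Dact1, an inhibitor of Wnt signalling inside the cell, fell from 62.1, 62.3 and 77.3 CPM to between 7.5 and 20.3 (-2.37 ± 0.07). In these 3 genes each of the 9 knockdown libraries lay below control.

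Ccnd2, the D-type cyclin that drives entry into S phase, showed how uneven a shared fall could be. Control held 26.4, 29.2 and 30.3 CPM, RBPMS knockdown 8.41 to 10.6, RBFOX2 knockdown 4.65 to 5.11 and QKI knockdown 1.53 to 2.06. The 3 log2 fold changes were -1.60, -2.57 and -4.07. Ephx1, a microsomal epoxide hydrolase, fell by 2.33 on the log2 scale, Islr, a secreted leucine-rich repeat protein, by 2.25, and Sema7a, a membrane-anchored semaphorin, by 2.10. Bves, a membrane protein of striated and smooth muscle, fell by 2.03, Vamp1, a vesicle fusion protein, by 1.89, and Stard10, a lipid transfer protein, by 1.74. Of these, Stard10 was the most even, with 0.35 between the highest and lowest knockdown.

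**Figure D2:**
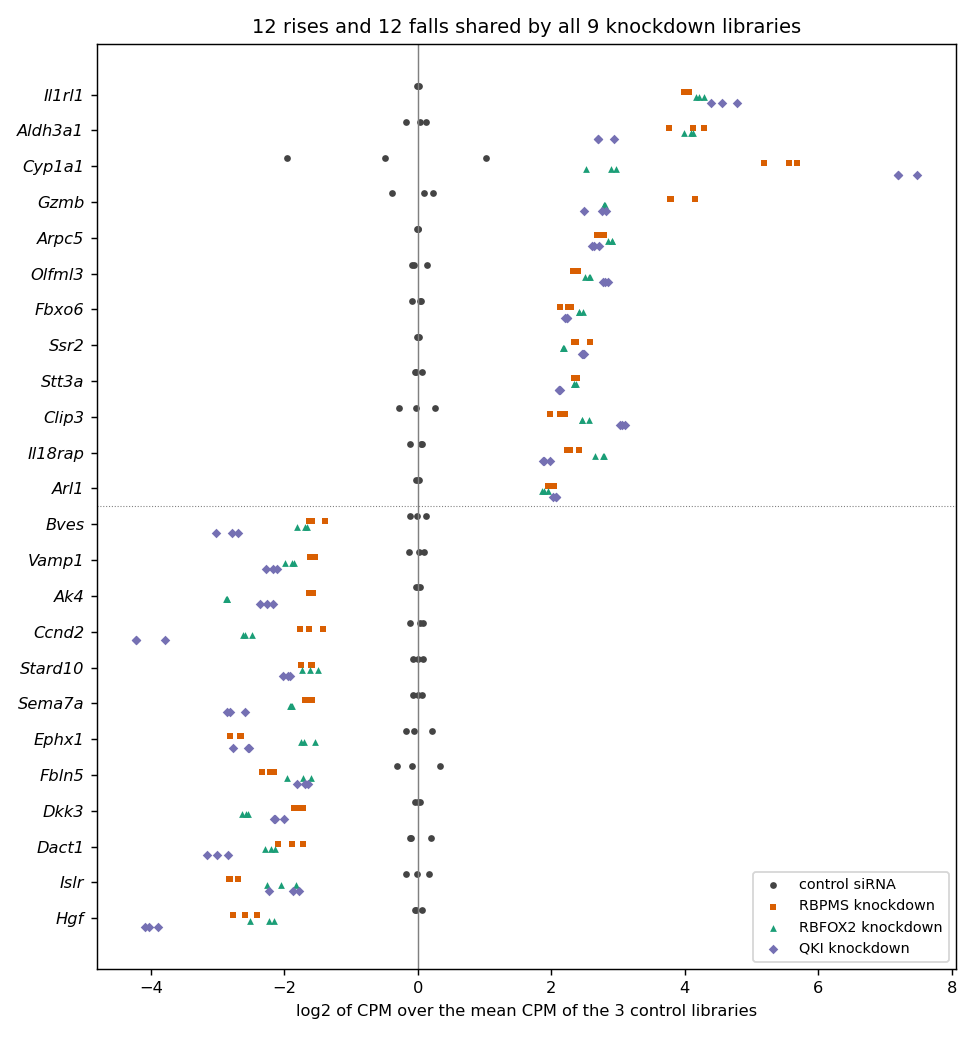
Log2 of the CPM of each knockdown library over the mean CPM of the 3 control libraries, for the 12 rises and the 12 falls with the largest smallest change among the 3 knockdowns. Points are libraries coloured by group, and in all 24 genes every knockdown library lies on the same side of control, which the choice of genes required.

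The interleukin 1 family was the list with the largest share of rises. Of its 16 tested members 7 were called higher, beside 5.08% of all genes tested, and 0 lower by either edgeR or DESeq2, while 3 had a lower mean at an unadjusted p under 0.05. The median log2 fold change was 0.86, against -0.003 over all genes tested. Across the 30 lists described, DESeq2 made the same number of calls as edgeR in 29, and in the exception, growth factors, it called 4 genes higher in place of 5. Among the receptors 5 of 7 rose. After Il1rl1 came Il1rl2, the receptor of interleukin 36, at 0.536 to 0.806 CPM in control. RBPMS knockdown held 3.47 to 4.78 CPM, RBFOX2 knockdown 1.81 to 1.92 and QKI knockdown 16.5 to 19.6. The log2 fold changes of 2.70, 1.501 and 4.79 were therefore unequal, unlike those of its neighbour Il1rl1.

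Il18rap, the accessory chain of the interleukin 18 receptor, rose from 2.13 to 2.41 CPM in control to between 8.49 and 15.9 in the knockdowns (log2 fold change 2.32 ± 0.065). Il18r1, the chain that binds the ligand, measured 0.71 to 0.852 CPM in control. Its change of 1.22 came mainly from RBFOX2 knockdown (2.02, against 0.74 and 0.89), and without that group it was 0.81. Il1r2, a decoy receptor, was also called higher but held 2 to 4 counts per library in control and 2 to 18 in the knockdowns.

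Not every receptor of the family moved this way. Il1r1, which carries the signal of interleukin 1, measured 29.4 to 30.8 CPM in control, 63.6 to 74.1 in RBPMS knockdown, 23.3 to 24.9 in RBFOX2 knockdown and 87.7 to 90.6 in QKI knockdown. Its mean change of 0.81 hid a difference of sign and was not called. Il1rap, the accessory chain shared by several of these receptors, lay below control in all 9 libraries, at 25.3 to 46.2 CPM against 70.3 to 75.6. Its mean change of -0.99 missed the fold threshold and crossed it without control 1 (-1.006) or control 2 (-1.005).

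Of the ligands, Il33 rose from 0.255 to 0.338 CPM in control to between 0.931 and 2.03 (log2 fold change 2.21 ± 0.16). Il1rn, the receptor antagonist, was called higher at a mean of 0.102 CPM in control and 0.153 to 0.429 in the 3 knockdowns. Of the 6 tested signalling genes of the family, which include the kinases of the receptor complex, none was called. In the RefSeq table of the rat assembly GRCr8, Il1r2, Il1r1, Il1rl2, Il1rl1, Il18r1 and Il18rap follow each other in that order, with H3f3al3 between the first and the next. Before this run lies Map4k4, with a mean change of -0.57, and beyond Slc9a4 and Slc9a2 after it lies Mfsd9, with 0.53. Neither Map4k4 nor Mfsd9 was called, nor was Slc9a2. Slc9a4, a sodium-proton exchanger, was called higher (2.62, adjusted p = 0.00217) at 0 to 4 counts per library in control and 2 to 35 in the knockdowns, which overlapped.

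**Figure D3:**
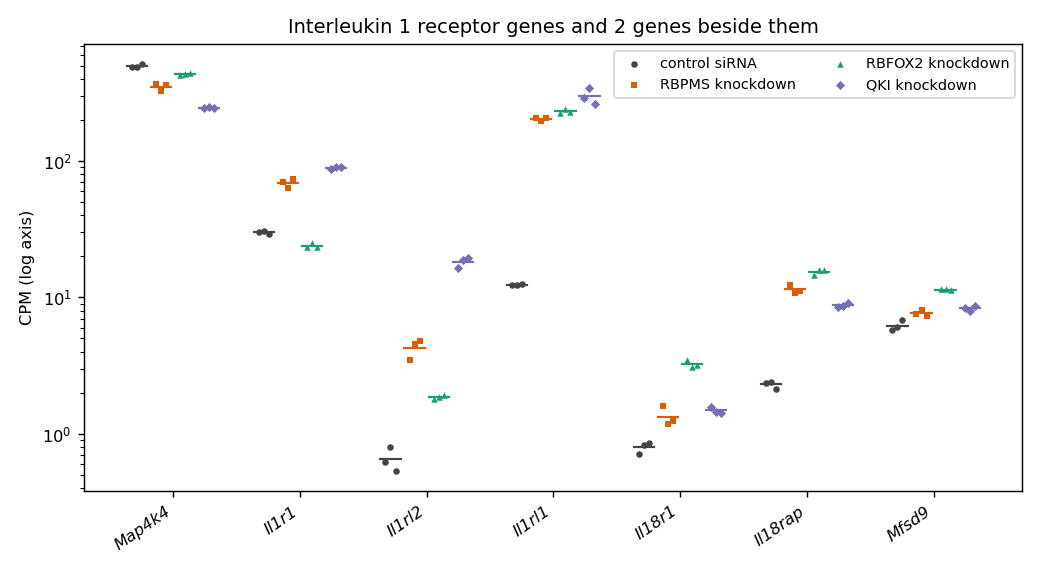
CPM (log axis) of Map4k4, Il1r1, Il1rl2, Il1rl1, Il18r1, Il18rap and Mfsd9 in each of the 12 libraries, coloured by group. Genes stand in the order of the GRCr8 table, and Il1r2, H3f3al3, Slc9a4 and Slc9a2, which lie among them, are not shown. The 3 control libraries of Il1rl1 lie at 12.3 to 12.6 CPM and its knockdown libraries at 197 to 343, while Il1r1 lies on both sides of control.

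Among genes of the aryl hydrocarbon receptor, 4 of 10 tested were called higher, beside 5.08% of all genes, and 0 lower by either tool. At an unadjusted p under 0.05, 2 were lower, and the median was 0.92. Cyp1a1, the monooxygenase that is the classic target, was nearly silent in control at 0.245, 0.698 and 0.0881 CPM. It reached 12.5 to 17.7 CPM in RBPMS, 1.97 to 2.69 in RBFOX2 and 50.2 to 61.3 in QKI knockdown. The mean log2 fold change was 5.14 ± 0.26 (adjusted p = 1.63e-11), and the 3 knockdowns gave 5.44, 2.75 and 7.24. All 9 knockdown libraries exceeded control, but the sizes differed widely.

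Aldh3a1, an aldehyde dehydrogenase induced by the same receptor, measured 2.06 to 2.54 CPM in control. It stood at 31.7 to 45.2, 37 to 40.5 and 15.1 to 17.7 CPM in the RBPMS, RBFOX2 and QKI knockdowns, an order unlike that of Cyp1a1. Tiparp, a repressor of the receptor that is also its target, rose from 44.7 to 55.6 CPM to between 101 and 153 (log2 fold change 1.23 ± 0.066). The related repressor Ahrr had a change of 0.89, and of 1.07 without control 2. Cyp1b1, another target, was not called. It measured 1672 to 1889 CPM in control, 1650 to 1915 in RBPMS knockdown, 1318 to 1466 in RBFOX2 knockdown and 349 to 374 in QKI knockdown. The receptor itself, Ahr, had a mean change of 0.17, with 0.44, 0.41 and -0.34 in the 3 knockdowns.

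Nqo1, a quinone reductase that is a target of both the aryl hydrocarbon receptor and NRF2, measured 414, 449 and 316 CPM in control and 722 to 1350 in the knockdowns (1.23 ± 0.091, adjusted p = 2.40e-09). Of the 20 NRF2 genes 3 were called higher, beside 5.08% of all genes, and 0 lower by either tool, with 5 lower at an unadjusted p under 0.05 and a median of 0.13. The other two were Hmox1, the inducible haem oxygenase, at 128, 142 and 84 CPM in control and 246 to 359 in the knockdowns, and Txnrd1, a thioredoxin reductase, at 100 to 105 and 192 to 357. Control 3 was the lowest library for Nqo1, Hmox1 and Tiparp, and the groups did not overlap in any of them. The remaining 17 NRF2 genes were not called.

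Promoters of Nqo1 and Tiparp are shown as RefSeq gives them for GRCr8, from 250 bases before the start of the gene to 50 after it, because these genes rose in every knockdown. Capitals mark the letters GCGTG on either strand, the core to which the aryl hydrocarbon receptor binds.
Nqo1, chr19:52220218-52220517, minus strand: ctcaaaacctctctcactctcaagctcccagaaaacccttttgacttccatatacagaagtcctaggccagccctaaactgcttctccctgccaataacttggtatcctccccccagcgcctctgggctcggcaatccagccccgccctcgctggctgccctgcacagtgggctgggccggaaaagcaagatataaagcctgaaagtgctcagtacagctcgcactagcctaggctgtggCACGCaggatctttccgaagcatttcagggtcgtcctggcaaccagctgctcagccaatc
Tiparp, chr2:152063519-152063818, plus strand: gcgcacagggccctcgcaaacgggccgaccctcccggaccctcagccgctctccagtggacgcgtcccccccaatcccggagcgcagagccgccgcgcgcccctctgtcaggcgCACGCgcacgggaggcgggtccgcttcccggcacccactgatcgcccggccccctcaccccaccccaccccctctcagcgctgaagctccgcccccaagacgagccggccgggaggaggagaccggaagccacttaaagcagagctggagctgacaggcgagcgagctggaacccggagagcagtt
Each window held 1 match, which began 10 bases before the start in Nqo1 and 136 before it in Tiparp. The core was found in 6 of the 9 promoters of the list that matched the table and in 29.7% of all 33469 promoters. Of those 6 genes, Nqo1 and Tiparp were called, while Arnt, Ahrr, Cyp1b1 and Ugt1a6 were not. Cyp1a1 and Aldh3a1 had no promoter in the table. The motif TGACNNNGC of antioxidant response elements was found, on either strand, in 4 of 17 NRF2 promoters and in 12.1% of all. Those 4 genes, Nfe2l2, Gclm, Me1 and Gstp1, were not called, and the called Nqo1 and Txnrd1 had no match. A match describes letters and is no evidence of binding.

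Contractile genes had the lowest median of the 30 lists. Of 8 markers that the study follows in these cells 4 were called lower, beside 3.86% of all genes, and 0 higher by either tool, with 2 higher at an unadjusted p under 0.05 and a median of -0.75. As the study chose them on such cells, the list is not independent evidence of its direction. Acta2, smooth muscle alpha-actin, fell from between 973 and 1006 CPM in control to 303 to 330 in RBPMS, 210 to 250 in RBFOX2 and 425 to 473 in QKI knockdown (-1.64 ± 0.041, adjusted p = 1.95e-15). Cnn1, calponin, fell from 6.10 to 6.66 CPM to between 1.02 and 4.77, with -1.32, -2.41 and -0.47 in the 3 knockdowns. Without RBFOX2 knockdown its mean was -0.90.

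Mylk, the kinase of the myosin light chain, had a mean change of -1.10, and -0.89 without QKI knockdown. Myl9, that light chain, measured 292 to 313 CPM in control and 120 to 197 in the knockdowns. Its mean of -1.02 lay at the threshold and was -0.996 without control 1, -0.92 without RBPMS knockdown and -0.95 without RBFOX2 knockdown. The other 4 markers went several ways. Tagln had a change of -0.48, Smtn of -0.13, Myocd, the coactivator of this programme, of 0.33 and Myh11, the smooth muscle myosin heavy chain, of 0.53. None of these 4 lay on the same side of control in all 9 libraries.

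A wider list of smooth muscle and actin cytoskeleton genes had 7 of 28 called lower and 1 higher. Over all genes tested those shares were 3.86% and 5.08%. The median of the list was -0.51. Gucy1b1 and Gucy1a1 encode the subunits of soluble guanylate cyclase, through which nitric oxide relaxes the muscle. Gucy1b1 fell from 245, 231 and 306 CPM to 55.5 to 58.3 in RBPMS, 100 to 113 in RBFOX2 and 11 to 12.4 in QKI knockdown (-2.66 ± 0.058). Gucy1a1 measured 13.9, 12.8 and 23.7 CPM in control and 11.3 to 14.3 in RBFOX2 knockdown, so that only RBPMS and QKI knockdown, at 3.47 to 4.27 and 1.10 to 1.48, lay clear of control.

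Notch3, the receptor that maintains arterial smooth muscle, fell from 68.4, 60.6 and 97.7 CPM to between 5.28 and 30.4 (-2.54 ± 0.12). Control 3 was the highest library for Notch3 and both cyclase subunits. Lmod1, leiomodin, fell by 1.46 on the log2 scale, and had -0.99 without QKI knockdown. Actg2, smooth muscle gamma-actin, which was named after its values were seen, fell from 15.6 to 18.4 CPM to between 3.68 and 9.45. Srf, the factor through which myocardin acts, lay below control in all 9 libraries, with a mean change of -0.98 that was not called, and likewise Cald1, caldesmon, with -0.83. Cavin1, a coat protein of caveolae, was the member called higher, at 149 to 167 CPM in control and 313 to 387 in the knockdowns. It too was named after its values were seen.

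**Figure D4:**
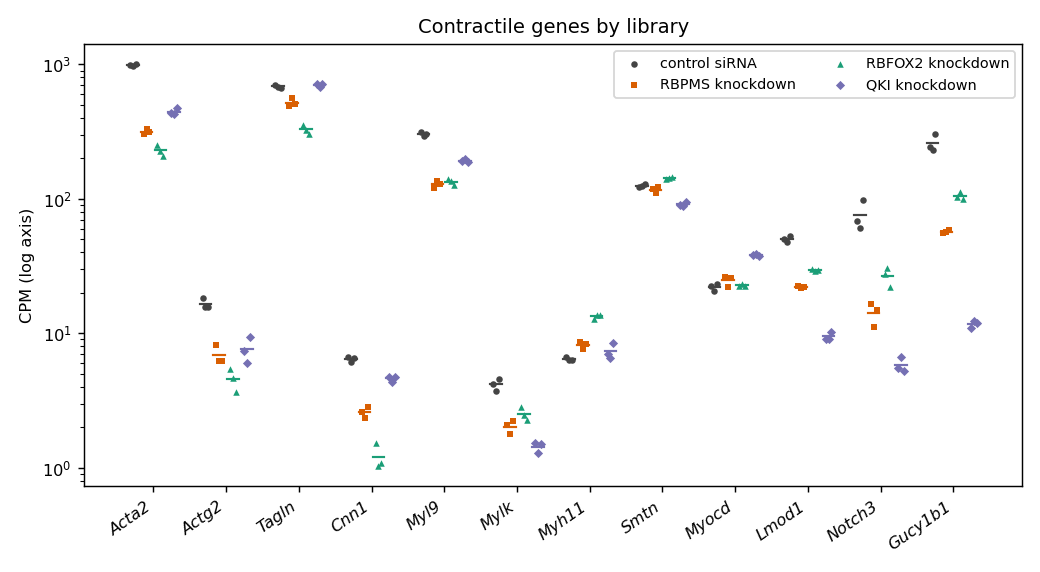
CPM (log axis) of contractile and smooth muscle genes in each of the 12 libraries, coloured by group. Acta2 lies at 973 to 1006 CPM in control and at 210 to 473 in the knockdowns, whereas Tagln, Smtn, Myocd and Myh11 overlap with control.

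Matrix genes did not move together. Of 27 tested 2 were called higher and 6 lower, beside 5.08% and 3.86% of all genes, with a median of -0.07. Fbln5, fibulin 5, which assembles elastic fibres, fell from 221, 189 and 296 CPM to between 46.8 and 77.4 (-1.90 ± 0.088). Eln, elastin, fell from 665, 583 and 1038 CPM to 381 to 428, 433 to 474 and 124 to 141, a change of -1.39 that was -0.84 without QKI knockdown. Thbs1, thrombospondin 1, rose from 737, 747 and 851 CPM to between 1205 and 2101, a change of 1.08 that was 0.96 without RBPMS knockdown.

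Col1a1, the chain that makes up most of type I collagen, lay above control in all 9 libraries at 13915 to 17047 CPM against 7292 to 8388. Its mean of 0.99 was evenly made up of 1.03, 0.94 and 1.02, missed the fold threshold and crossed it without control 3 (1.06), RBPMS-KD 2 (1.02), QKI-KD 3 (1.01) or RBFOX2-KD 2 (1.00). Spp1, osteopontin, fell in the mean by 1.22 on the log2 scale, and had -0.53 without QKI knockdown. Dcn, decorin, had a change of -1.32, of which RBFOX2 knockdown gave -0.22. Fn1, fibronectin, had -0.61 and was not called. The other 3 called genes were named after their values were seen and each depended on 1 group or library. They were Col12a1 (1.03, 0.76 without RBFOX2 knockdown, 1.00 without control 1 and 0.98 without control 2), Lum (-1.07, -0.77 without control 3) and Col6a3 (-1.04, 0.10 without QKI knockdown, -0.98 without control 3).

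Beside the fall of Hgf stood rises of Ereg and Hbegf, ligands of the epidermal growth factor receptor. Of 30 growth factors, receptors and binding proteins 5 were called higher and 4 lower, beside 5.08% and 3.86% of all genes. The median was -0.21. Ereg, epiregulin, rose from 6.35, 6.71 and 5.24 CPM to between 21.6 and 33.5 (log2 fold change 2.19 ± 0.066). Hbegf, heparin-binding EGF-like growth factor, rose from 19.3, 21.4 and 18.5 CPM to between 47.3 and 52.1 (1.33 ± 0.041). At 0.11 between the highest and lowest knockdown, Hbegf was among the most even genes named here. None of the 8 tested receptors was called. Met, which binds Hgf, had -0.25, and Egfr, which binds epiregulin, -0.47.

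Binding proteins of insulin-like growth factors moved both ways. Igfbp4 rose from 6.72 to 7.06 CPM to between 10 and 20.1 (1.12, and 0.92 without RBPMS knockdown), whereas Igfbp7 fell from 115 to 141 CPM to 58.2 to 67.4, 85.9 to 96.8 and 5.27 to 6.39. Fgf7 rose from 0.323 to 0.457 CPM to between 0.626 and 1.19 (1.28 ± 0.20). Igfbp3, at no more than 0.313 CPM in any library, had 2.27 with an adjusted p of 0.0183, which was 0.0811 without control 1, 0.0833 without control 3, 0.0779 without QKI-KD 1 and 0.104 without RBFOX2 knockdown. Igfbp3, Igfbp4 and Fgf7 were named after their values were seen.

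Inhibitors of Wnt signalling gave 1 rise and 2 falls among 9 tested, and the whole Wnt list 3 and 2 among 26. Of all genes tested 5.08% were called higher and 3.86% lower. Beside the falls of Dact1 and Dkk3, Sfrp2, a secreted Frizzled-related protein, rose from 2.88 to 4.54 CPM to between 5.69 and 12.5 (1.23 ± 0.1). Ror1, a receptor of Wnt5a, rose from 3.84 to 4.8 CPM to between 7.51 and 11 (1.17 ± 0.095). Of 27 genes of the TGF-beta and BMP pathways 4 were called higher and 1 lower, with a median of -0.10. Tgfbi, a matrix protein induced by TGF-beta, rose from 4.38 to 5.74 CPM to between 12.3 and 22.9 (1.61 ± 0.07).

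Energy and stress lists held up to 3 calls each. In glycolysis and the response to hypoxia 3 of 24 genes were called lower, beside 3.86% of all genes tested. By either tool 0 were called higher, and the median was -0.32. At an unadjusted p under 0.05, 20 of the 24 had a lower mean and 4 a higher one, and 10 of the 24 lay below control in all 9 libraries, beside 14.1% of all genes tested. Ak4, a mitochondrial adenylate kinase induced by hypoxia, fell from 64.3, 65.7 and 67.2 CPM to 21.3 to 22, 8.97 to 9.07 and 12.7 to 14.5 (-2.24 ± 0.034). Slc16a3, the lactate exporter, fell from 7.65 to 7.91 CPM to between 1.59 and 2.94 (-1.90 ± 0.066). The 13 enzymes stayed within -0.70 and 0.33, and none was called. Aldoa had -0.38 and Ldha 0.33.

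The p53 list, 14 targets and 2 factors, gave 2 falls among 16 genes, beside 3.86% called lower of all genes tested. Its median was -0.37. At an adjusted p under 0.05, 10 had a lower and 3 a higher mean, beside 32.8% and 29.2% of all genes tested. Of the 14 targets alone, 10 were lower and 1 higher in this way. In all 9 libraries 7 of the 16 lay below control, beside 14.1% of all genes tested. Eda2r, a receptor of ectodysplasin, fell from 26.8 to 31.4 CPM to between 8.36 and 10.7 (-1.57 ± 0.045), evenly in the 3 knockdowns. Cdkn1a, the cell cycle inhibitor p21, had 0.23 and Mdm2, which degrades p53, 0.53. Among 13 chaperones and related genes of the endoplasmic reticulum only Hsp90b1 was called, with a rise of 1.15 that was 0.98 without RBPMS knockdown. Hspa5, the chief chaperone of that compartment, had 0.36, made up of 0.88, -0.12 and 0.32. Of 15 ATF4 genes 1 was called lower, and Atf4 itself had 0.46.

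Genes of DNA replication and mitosis moved little. Of 21 DNA replication genes 0 were called by either edgeR or DESeq2, while 15 had a higher and 2 a lower mean at an unadjusted p under 0.05. Their median was 0.19 and 9 lay above control in all 9 libraries, beside 13.4% of all genes. The 18 mitosis genes had 0 calls by either tool, 15 higher and 2 lower at an unadjusted p under 0.05, and a median of 0.16. Mcm2, a helicase subunit, had 0.19 and Mki67, the antigen of dividing cells, 0.10. Of 25 interferon genes, which respond to double-stranded RNA among other signals, 2 were called higher, beside 5.08% of all genes. Eif2ak2, the kinase PKR that binds double-stranded RNA, rose from 30.2 to 33.6 CPM to between 60 and 96.3 (1.17, and 0.999 without RBFOX2 knockdown). Usp18, which removes ISG15 from proteins, rose from 9.12 to 11.6 CPM to between 18.6 and 28.1 (1.08 ± 0.086). The median of the interferon list was 0.16, with 0.21, 0.64 and -0.29 in the RBPMS, RBFOX2 and QKI knockdowns.

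Small RNA machinery gave 1 rise among 13 genes, Tnrc6a, a partner of Argonaute, at 1.07 and at 0.90 without RBFOX2 knockdown. NF-kB targets and chemokines gave 1 rise among 19, the chemokine Ccl2, from 12.2, 14.8 and 8.59 CPM to between 20 and 73.2. By either tool 0 genes were called among 22 of cholesterol synthesis, 10 of fatty acid synthesis, 19 of the lysosome, 19 of oxidative phosphorylation and 20 cytosolic ribosomal proteins, whose medians lay between -0.149 and -0.010. Together with DNA replication and mitosis these lists held 129 genes, of which 97 had an unadjusted p under 0.05. Of all genes tested, 62.0% passed at an adjusted p alone, so most genes of any list would be counted in this way. Splicing regulators had 1 call higher and 2 lower among 33, with a median of 0.07. Immediate early genes, YAP and TEAD genes and complement each had 1 call lower, and prostaglandins, retinoids and sphingolipids each 1 higher. Beside the counts of these lists stand 5.08% of all genes called higher and 3.86% lower. The lower complement gene was Cd59, which protects cells from the membrane attack complex, at 5.76 to 6.13 CPM in control and 0.835 to 2.95 in the knockdowns.

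**Figure D5:**
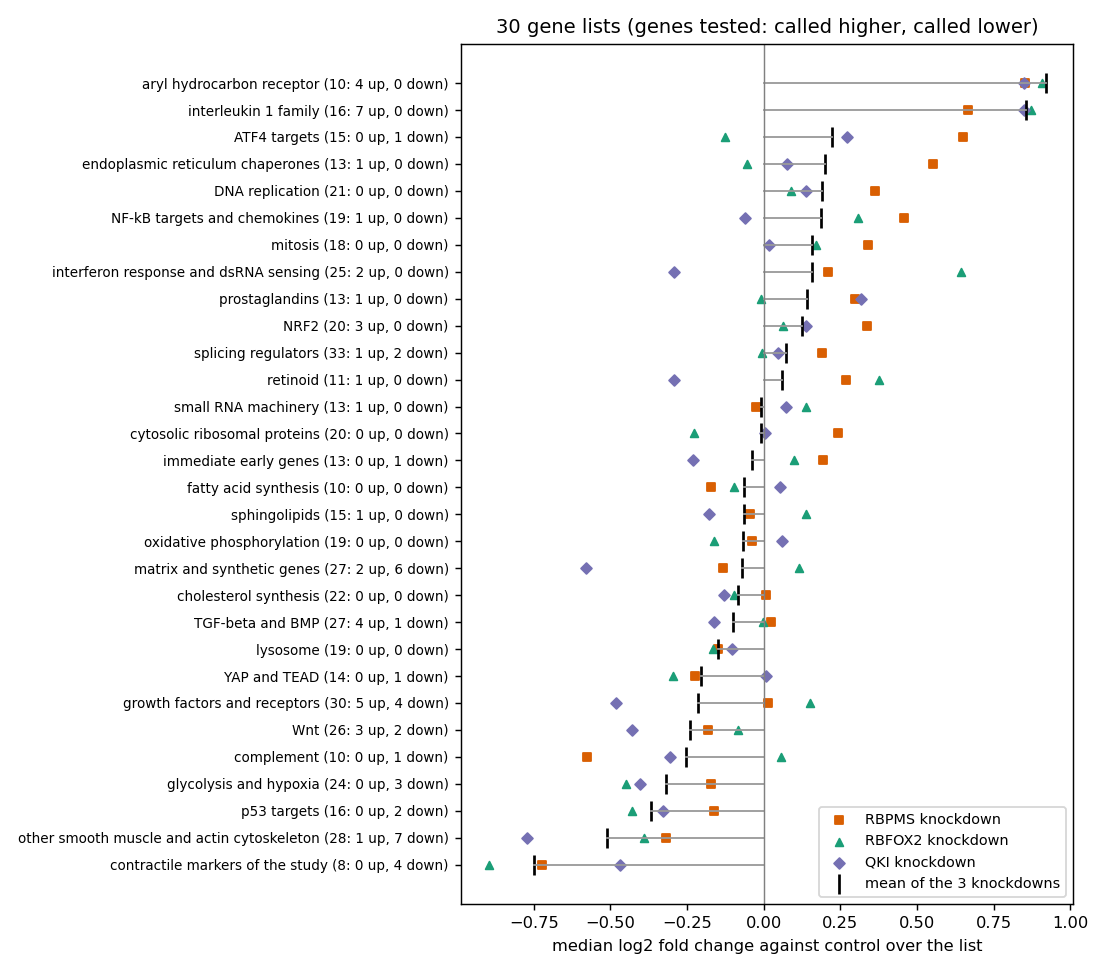
Median log2 fold change against control of 30 gene lists, in the mean of the 3 knockdowns and in each of them, with the number of genes tested and called beside each name. The median of the mean contrast need not lie among the 3 knockdown medians. The aryl hydrocarbon receptor (0.92) and interleukin 1 (0.86) lists stand highest, the contractile markers (-0.75) lowest.

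Most calls did not pass the thresholds in each knockdown taken alone. An adjusted p under 0.05 and a change of more than 1 in the direction of the mean were met in all 3 knockdowns by 363 of the 937 rises (38.7%) and 156 of the 712 falls (21.9%), in 2 of them by 423 and 371, and in 1 by 149 and 183. In 39 rises and 41 falls at least 1 knockdown had a change of the opposite sign. The 3 knockdowns share the control libraries, so these counts are not independent of each other. Some calls rested on 1 or 2 groups. Sspn, sarcospan, stood at 36.2, 36.2 and 39.1 CPM in control and at 29.5 to 32.6 in RBPMS knockdown, but at 1.22 to 1.53 in RBFOX2 and 0.468 to 0.774 in QKI knockdown. Esm1, a secreted proteoglycan, stood at 230 to 235 CPM in control, 222 to 227 in RBPMS, 163 to 164 in RBFOX2 and 10.8 to 12.2 in QKI knockdown. Itgb1, integrin beta 1, stood at 2117 to 2174 CPM in control and 331 to 343 in RBFOX2 knockdown, and at 1668 to 1970 in the other two. Without the group that moved most, the changes of Esm1 and Itgb1 were -0.29 and -0.24, so neither was a shared change of that size.

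Markers of other cell types were read beside these results, with their counts summed and divided by the library total alone, without the composition scaling behind the levels of single genes. Smooth muscle markers summed to 2717 to 2813 CPM in control and 1294 to 1929 in the knockdowns. All 12 were tested and 5 were called lower, beside 3.86% of all genes. Fibroblast markers summed to 7212 to 8290 and 13230 to 17640 CPM, nearly all of it Col1a1, while Dcn and Lum, 2 of the 6, were called lower. Cartilage and bone markers summed to 2655 to 2998 and 1064 to 1781 CPM, nearly all of it Acan, a matrix proteoglycan. Its change of -1.02 was -0.97 without control 2 and -0.99 without RBPMS-KD 2. Macrophage markers summed to 37.07 to 38.88 and 45.77 to 56.93 CPM, mostly Cd14 (mean change 0.35, not called), with Ptprc and Adgre1 too low to test. Csf1r, the receptor of macrophage colony-stimulating factor, was called higher (1.70), at 0.367 to 0.457 CPM in control, 0.827 to 1.02 in RBPMS, 0.549 to 0.94 in RBFOX2 and 3.30 to 3.97 in QKI knockdown. Epithelial markers summed to 28.97 to 31.37 and 33.81 to 75.52 CPM, nearly all of it Krt8 (mean change 0.57, not called), with Cdh1 called higher at a mean of 0.176 CPM and Krt19 at no more than 3 counts in every library. Endothelial markers summed to 8.551 to 10.61 CPM in control and 5.335 to 8.759 in the knockdowns. Cdh5, the most abundant of them, lay below control in all 9 libraries (-0.85, not called). Tek had 0.38 and Vwf -0.38, and neither was called. Adipocyte, neuronal and striated muscle markers summed to at most 5.309 CPM in any library. Among the endothelial markers and these, Pecam1, Tie1, Fabp4, Gfap (2.93), Myod1 (2.03) and Myh1 (1.79) were called higher and Nkx2-5 lower. Those called had means of no more than 1.14 CPM over the 12 libraries. The part of these cell types in the results was not tested.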

How the data were processed

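Poly(A)-selected RNA of 12 libraries was sequenced. Per the labels and methods, the authors aligned reads with STAR (2.5.2a in the submitters' processing notes) to mRatBN7.2 and deposited raw counts per gene for 33294 symbols, and also a quantile-normalised signal table deposited by the authors for 22320 of them, which served as an alternative only. How reads shared by close paralogues or overlapping genes were counted is not given in the sources used here, so values of such genes (the actins, for example) are uncertain. Of values from 1 to 19, 68.1% were even, against 50.9% above 1000, and halved counts were therefore tried. Totals of 111 to 152 M counts exceed the common depth to which the study says reads were subsampled, so what 1 count stands for is uncertain, and with it the precision that these totals give.

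Groups came from the sample titles. The test was that of edgeR 4.0.16 (R 4.3.3): filterByExpr by group (18438 genes, 99.99% of counts), TMM, 1 coefficient per group, glmQLFit and glmQLFTest, two-sided, contrast of the mean of the 3 knockdown coefficients against control, Benjamini-Hochberg over all genes tested. A 2-df contrast tested the difference among the knockdowns. A call needed an adjusted p below 0.05 and a change of more than 1 on the log2 scale. The fits were tested on simulated counts. Comparisons of single knockdowns share the control libraries, so calls that several of them share are counted as a description and their overlap was not tested. With 1 control group, the adjusted p describe the spread between these libraries.

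Members and the 30 lists were chosen with earlier results of these data known, so lists carry counts and medians and no test. Named genes were the siRNA targets; the 12 rises and 12 falls with the largest smallest change among the knockdowns (called, mean of at least 5 CPM, no overlap, no placeholder symbol); per list, up to 5 called members with the largest change at 1 CPM or more and up to 3 uncalled members of the highest level; the 5 called genes of the highest level; and the 5 with the largest range among the knockdowns. Not every gene that this rule names is described here. Other genes named, apart from the markers, were chosen after their values were seen. Same-numbered libraries of different groups did not deviate together. Promoter and gene tables were RefSeq's for GRCr8, which differs from the authors' build, and 26967 of 33294 symbols occurred there. Alternatives were other scalings, filters, thresholds, DESeq2 1.42.0, limma 3.58.1 on log2(signal + 1) of the authors' table, leaving out each library or knockdown group, knockdown as 1 group, and the replicate number as a block.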

Additional observations from a re-analysis of the deposited data

Results flagged for a closer look

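Each gene below was listed because the 3 knockdown groups differed from each other by more than 2 on the log2 scale between the highest and the lowest, at an adjusted p under 0.05 in the edgeR test among the knockdowns, so that its mean describes no single shared size. The values given are that distance. Largest was Sspn at 5.63, followed by Cyp1a1 at 4.49, Col7a1, a collagen of anchoring fibrils, at 4.34, Esm1 at 4.29, Igfbp7 at 3.99 and Col6a3 at 3.96. Col7a1 was called higher in the mean, but QKI knockdown alone was far from control, at 21.5 to 24 CPM against 1.37 to 1.48.

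Smpd3, a neutral sphingomyelinase, stood at 3.34, with 1.92, 3.60 and 0.25 in the RBPMS, RBFOX2 and QKI knockdowns. Il1rl2 stood at 3.29, Gucy1a1 at 3.27 and Gucy1b1 at 3.16. Pdgfd, a platelet-derived growth factor, stood at 2.88, and its mean of -1.25 was -0.97 without control 3.

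Itgb1 stood at 2.55, Ccnd2 at 2.47, Igfbp3 at 2.47, Cyp1b1 at 2.27, Notch3 at 2.20, Spp1 at 2.15 and Dcn at 2.04. The targets Qk, at 3.31, and Rbpms, at 2.01, are in this list through their own siRNAs.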

How the results depend on the processing

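The number of genes called (1649, with 937 higher and 712 lower) moved with the threshold and the filter. It was 11433 (5390 and 6043) at an adjusted p alone, 604 (322 and 282) when the fold threshold entered the test by glmTreat, and 599 (289 and 310) among genes with a mean of at least 200 counts, where 1855 genes differed among the knockdowns in place of 4249. Treating the 9 knockdown libraries as 1 group, so that differences among knockdowns widened the error, left 1078 (685 and 393). The share of calls that were higher was 56.8%, 48.2% with the 200-count filter and 63.5% as 1 group. Other settings stayed within 1.5 times of each count, with 1667 calls by DESeq2, 1655 with RLE, 1880 without a filter, 1418 on halved counts and 1241 in the authors' table, and with 1933, 2022 and 1561 when RBPMS, RBFOX2 or QKI knockdown was left out. Leaving out 1 library gave 1553 to 1716 calls, 855 to 969 higher and 698 to 769 lower, 4095 to 4305 genes different among the knockdowns, and 2497 to 2803 above and 2679 to 2897 below control without overlap.

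Replicate numbers did not pair the samples. Deviations of same-numbered libraries correlated between -0.054 and 0.039 over 18 pairs, and those of differently numbered libraries between -0.042 and 0.05 over 36. With the replicate block 1635 genes were called.

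Of 117 named genes 70 kept their side of the threshold and their direction in every alternative in which single genes were followed. The changed thresholds, adjusted p alone and glmTreat, were not among these alternatives. Most losses came without 1 knockdown group or with the knockdowns as 1 group, where the adjusted p was 0.327 for Sspn, 0.132 for Gucy1a1 and 0.412 for Itgb1. Without QKI knockdown, Col6a3 turned to 0.10 and Smtn to 0.035. For other alternatives that moved a gene across the threshold the cause was not tested.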

Other observations

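Partners of 3 of the large rises were looked up after those rises had been seen. Arpc5 rose by 2.76 on the log2 scale. The other 8 tested subunits of the Arp2/3 complex, the paralogue Arpc5l included, lay between -0.64 and 0.14 in the mean and none was called. In single knockdowns some went further, with Arpc1b at 0.15, -1.44 and -0.28 in the RBPMS, RBFOX2 and QKI knockdowns. Arpc4 had -1.34 in RBFOX2 knockdown and Actr2 -1.11 in QKI knockdown. Stt3a rose by 2.28 and its alternative catalytic subunit Stt3b had 0.75, above control in all 9 libraries but not called. The other 7 subunits of the oligosaccharyltransferase lay between -0.38 and 0.31 in the mean. The lowest of these, Rpn1, hid a difference of sign, with 0.79, 0.51 and -2.45 in the RBPMS, RBFOX2 and QKI knockdowns. Its control libraries held 305 to 309 CPM and QKI knockdown 55.4 to 56.3, and the distance among the knockdowns was 3.24. Ssr2 rose by 2.36 and Ssr1 by 1.05 (0.95 without QKI knockdown), and the same complex had 0.81 for Ssr3 and -0.05 for Ssr4.

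Coronins, which regulate Arp2/3 at actin branches, were looked up in the same way. Coro1b stood at 66.7 to 67.3 CPM in control and 233 to 287 in the knockdowns, a rise of 1.98 ± 0.033 with 2.02, 2.07 and 1.84 in the RBPMS, RBFOX2 and QKI knockdowns. Coro1a fell by 2.08 from a mean of 3.09 CPM in control. Of the 5 coronins tested 1 was called higher and 2 lower, beside 5.08% and 3.86% of all genes. The other fall, Coro2a (-1.22), held 0 to 34 counts per library, with -0.42, 0.01 and -3.26 in the RBPMS, RBFOX2 and QKI knockdowns. Coro1c had 0.19 and Coro2b -0.50, and neither was called.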
